A study of Mus musculus with 3 samples.

Results

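Oxidative phosphorylation is the process by which mitochondria make most of the ATP of an oxygen-consuming cell. Complex I takes electrons from NADH, complex III passes them to cytochrome c, complex IV hands them to oxygen, and the proton gradient built on the way drives complex V, the ATP synthase. Most subunits of these complexes are encoded in the nucleus and imported, while a small core is encoded by the mitochondrial genome itself, so that each complex other than complex II is assembled from the products of both genomes. Several complex IV subunits exist in alternative forms that are known for tissue-restricted use, such as heart and muscle forms, testis forms and an oxygen-responsive form of subunit 4.

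The genes described here are the nuclear subunit genes of complexes I, III, IV and V, taken by symbol (Ndufa, Ndufb, Ndufc, Ndufs, Ndufv, Uqcr, Cox4i, Cox5, Cox6, Cox7, Cox8 and Atp5). Leaving out 7 genes of assembly factors that begin with Ndufaf, this gave 81 of the 27998 genes of the matrix, with 38 in complex I, 8 in complex III, 18 in complex IV and 17 in complex V. The choice is by name, so it holds Atp5s, Atp5sl and Cox7a2l, whose products are known as assembly or supercomplex factors, and Ndufa4, whose product is now counted with complex IV. They were measured by droplet RNA sequencing (10x Genomics, version 2 chemistry, which counts transcript 3′ ends by unique molecular identifiers, UMIs) in the aorta-gonad-mesonephros region of mouse embryos at E10.5, where the earliest blood stem cells form. Regions of embryos with 28 to 32 somite pairs were pooled, and 3 Ter119-negative populations were sorted with 1 sample each and 2 lanes each: live niche cells, endothelial cells (CD31+, VE-cadherin+, CD41-, cKit+) and T1-preHSCs, precursors of blood stem cells that carry low CD41. Strain and sex of the embryos are not given in the sources used here.

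All populations came as 1 matrix of 9492 barcodes with 8 barcode suffixes, called libraries 1 to 8 here. The labels tie no library to a population, so the matrix counts as 1 sample, no test between groups was possible and every interval below covers counting error only. After filters and removal of likely doublets, 8915 barcodes were kept, with a median of 7466 UMIs and 2474 genes. Median UMIs of the kept barcodes ran from 6398 in library 1 to 15593 in library 8, and libraries 7 and 8 were the deepest and the smallest (97 and 154 kept barcodes), and 54 of 9438 barcode sequences occurred in more than 1 library. Classes of barcodes were gated on lists of marker genes of 17 cell types, with at least 3 markers detected and a clear lead over the next list. This placed 5471 barcodes (61.4%), and the names are those of the gates. The endothelial class held 2049 barcodes with a median of 10 of its 12 markers detected, the haematopoietic progenitor class 141 with a median of 8, and the germ cell class 225 with a median of 6 of 10, against a median of at most 2 markers of any other list in these 3 classes. Other gates were looser: smooth muscle had a median of 4 own markers and 3 of another list, macrophages 10 and 6, and 108 of 279 dermomyotome, 93 of 405 neural progenitor and 30 of 82 smooth muscle barcodes had exactly the minimum of 3 markers. The erythroid class held 11 barcodes in these Ter119-negative sorts.

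The promoters of these genes are shown because many subunits are thought to be switched on together through binding sites for nuclear respiratory factors, ETS factors and YY1. RefSeq promoter windows (build GRCm38.p6, 250 bases before to 50 after the start) matched 64 of the 81 genes. The letters searched, on both strands, were GCGCATGC for NRF1, CCGGAAG for the ETS core used by GABP, AAGATGGC for YY1, CACGTG for an E-box and CCAAT for the CCAAT box. The 4 stretches below lie upstream of subunit genes that were high in germ cells and cover bases before the start that no annotated exon overlaps. They are written 5′ to 3′ in the direction of the gene, with the motifs found in capitals, from chr9:44920752-44920992, chr15:82354323-82354541, chr11:96075671-96075881 and chr7:4753095-4753225, all on the minus strand.
Atp5l: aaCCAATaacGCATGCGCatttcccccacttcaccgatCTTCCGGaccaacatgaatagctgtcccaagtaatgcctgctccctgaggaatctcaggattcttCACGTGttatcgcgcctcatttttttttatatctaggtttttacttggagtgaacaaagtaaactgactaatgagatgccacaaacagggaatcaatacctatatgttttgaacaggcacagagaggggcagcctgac
Ndufa6: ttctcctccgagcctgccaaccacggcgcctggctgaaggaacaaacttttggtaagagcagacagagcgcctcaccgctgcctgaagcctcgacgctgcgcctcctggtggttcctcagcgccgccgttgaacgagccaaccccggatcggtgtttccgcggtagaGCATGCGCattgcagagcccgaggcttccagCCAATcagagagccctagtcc
Atp5g1: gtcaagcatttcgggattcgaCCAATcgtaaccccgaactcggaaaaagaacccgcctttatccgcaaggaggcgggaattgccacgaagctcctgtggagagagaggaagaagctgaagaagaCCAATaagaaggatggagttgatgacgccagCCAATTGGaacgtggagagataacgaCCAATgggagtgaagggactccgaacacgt
Cox6b2: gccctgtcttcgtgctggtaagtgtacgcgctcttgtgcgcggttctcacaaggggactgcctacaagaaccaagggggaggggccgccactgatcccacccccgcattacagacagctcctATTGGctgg
Atp5l carries the NRF1, ETS, E-box and CCAAT letters in this stretch, Ndufa6 the NRF1 and CCAAT letters, Atp5g1 5 CCAAT boxes, of which a pair overlaps in reverse orientation, and Cox6b2 a single inverted CCAAT box. Over the whole windows, the NRF1 letters were present in 9 of 64 subunit genes (14.1%) against 3.05% of 27025 genes. The ETS letters were present in 14 of 64 (21.9%) against 9.93% of all genes, and the YY1 letters in 9 of 64 (14.1%) against 3.19%. The E-box was present in 7.81% of the subunit genes and 8.09% of all genes, and the CCAAT box in 42.2% and 41.1%. A match is a description of letters in this window and not of a bound site. The 27025 genes were not matched to the subunit genes for level in these data. Whether the differences are particular to the subunit genes was therefore not tested.

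The 81 genes together took 2068557 UMIs, or 2.85% of all UMIs of the kept barcodes, beside 2.67% for the 13 protein-coding mt- genes and 27.4% for cytosolic ribosomal protein genes. The middle 50% of barcodes lay between 2.60% and 3.04%, around a median of 2.81%, and the 5th and 95th percentiles were 2.28% and 3.45%. Every subunit gene had at least 1 UMI, 70 reached 50 CPM (UMIs of the gene in 1000000 UMIs of the class) and 4 stayed under 1 CPM. These values are UMI counts of 3′ ends and are not divided by transcript length, so levels are compared between classes and not between genes. In each complex the gene with the most UMIs was Ndufa4 in complex I (915 CPM, 95% Poisson interval 908 to 922), Uqcrh in complex III (691 CPM), Cox4i1 in complex IV (1343 CPM) and Atp5b, the catalytic beta subunit of complex V (1041 CPM). Of the mt- genes, mt-Atp6 stood at 6995 CPM, mt-Co3 at 4633, mt-Nd1 at 3303, mt-Co2 at 3082, mt-Co1 at 2601, mt-Cytb at 2543, mt-Nd4 at 1782 and mt-Nd2 at 1230. The other mt- genes lay far lower, with mt-Nd5 at 273 CPM, mt-Nd3 at 107, mt-Nd4l at 73.5, mt-Atp8 at 18.8 and mt-Nd6 at 12.6. Of the 81 genes, 12 overlap another annotated gene on the same strand (GENCODE vM21), which is in the matrix for 4 of them, namely Cox4i1, Ndufa13, Ndufb2 and Ndufb8, and 5 (Atp5c1, Atp5k, Atp5l, Ndufab1 and Uqcrh) have annotated -ps copies that are not rows of the matrix. Counts of these genes are uncertain to the extent that such reads were split.

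Across the 14 classes of at least 50 barcodes, the summed share lay between 2.60% and 2.97% in 13 and was higher in germ cells. The germ cell class stood at 3.88% (95% binomial interval 3.85 to 3.91%, 225 barcodes), and both libraries with at least 20 germ cells gave 3.88%. The next classes were neurons at 2.97% (2.95 to 2.99%), nephric cells at 2.96% and haematopoietic progenitors at 2.95% (2.93 to 2.98%), which lie within their counting intervals of each other. Coelomic epithelium and endothelial cells followed at 2.91% each, with endothelial libraries from 2.83% to 3.04%. Dermomyotome (2.79%), neural progenitors (2.77%), sclerotome (2.77%), neural crest and glial precursors (2.76%), myotome (2.72%) and mesenchyme (2.71%) formed a tight group, and their libraries overlapped throughout. Smooth muscle (2.63%, 82 barcodes) and gut epithelium (2.60%, 53 barcodes) were lowest among the 14 classes of at least 50 barcodes. The 3 smaller classes, each under 50 barcodes, stood at 2.88% (megakaryocyte), 2.65% (macrophage) and 1.90% (erythroid, 11 barcodes). Germ cells were the highest class under each of the 22 settings of gate, filter, library and denominator that were tried, while the place of the second and of the lowest class changed with the setting.

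**Figure D1:**
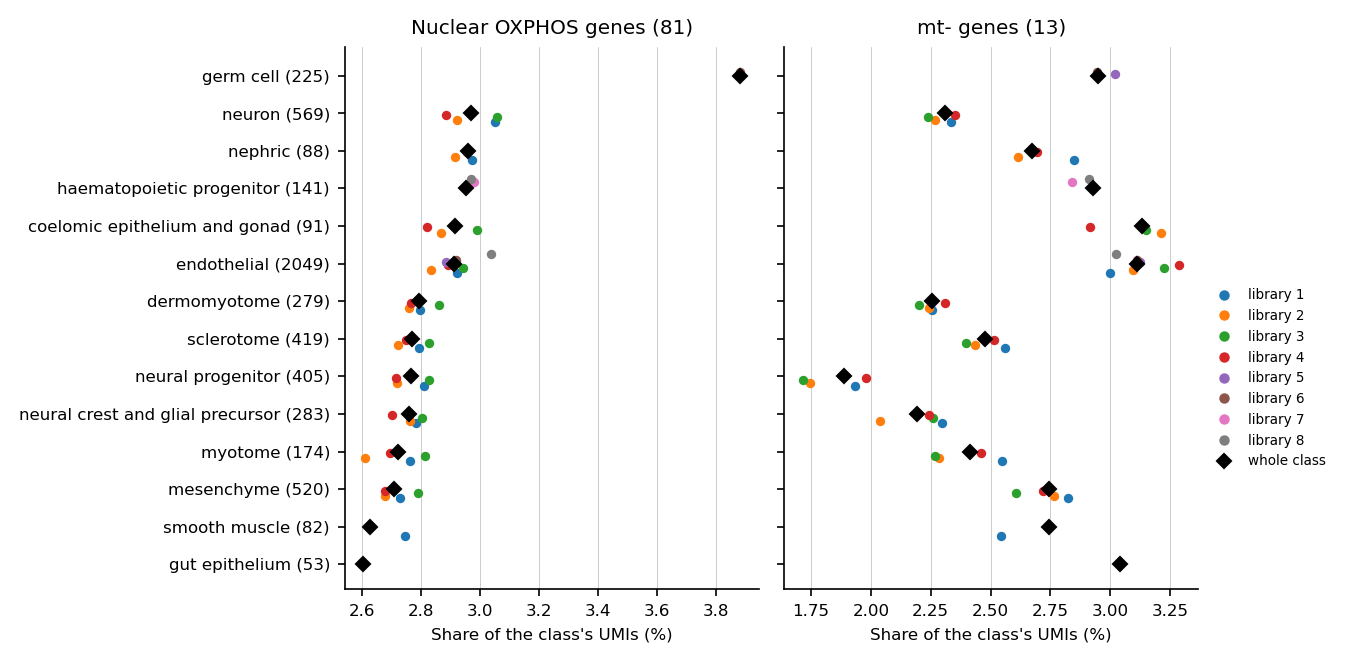
Share of UMIs (%) taken by the 81 nuclear subunit genes (left) and the 13 mt- genes (right) in 14 marker classes, with the number of barcodes in parentheses. Diamonds are whole classes and dots are libraries with at least 20 barcodes of the class. The germ cell class lies alone at 3.88% on the left, while on the right neural progenitors are lowest at 1.89% and coelomic epithelium and endothelial cells highest at 3.13% and 3.11%.

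The nuclear and the mitochondrial genes did not follow each other over the classes. Neural progenitors had the lowest mt- share, 1.89%, and a middling nuclear share, which gave 1.47 nuclear subunit UMIs per mt- UMI. Gut epithelium had a high mt- share of 3.04% with the lowest nuclear share, or 0.856 nuclear UMIs per mt- UMI. Germ cells, at 2.95% mt-, had 1.31 nuclear UMIs per mt- UMI, neurons 1.29 and endothelial cells 0.936. Ribosomal protein genes took 36.3% of UMIs in germ cells and 35.2% in haematopoietic progenitors, against 22.1% in neurons and 27.4% in endothelial cells. As a share of the UMIs that are neither mt- nor ribosomal, the nuclear subunit genes made up 6.38% in germ cells, 4.77% in haematopoietic progenitors, 4.19% in endothelial and nephric cells and 3.52% in smooth muscle. A barcode filter at 10% mt- UMIs was applied and removed 108 barcodes, so the mt- shares are those under this limit.

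Libraries moved the share less than the germ cell class did, but in a fixed order. Over all kept barcodes the share was 2.81%, 2.75%, 2.84% and 2.75% in libraries 1 to 4, and 2.97%, 3.01%, 3.05% and 3.01% in libraries 5 to 8. These values mix library and class, as libraries 5 and 6 held 105 and 102 germ cells. Within endothelial cells libraries 5 and 6 read 2.88% and 2.92%, beside 2.92%, 2.83%, 2.94% and 2.89% in libraries 1 to 4. In all 8 classes with at least 20 barcodes in each of libraries 1 to 4, libraries 1 and 3 both lay above libraries 2 and 4, with the highest library 1.04 to 1.08 times the lowest. Neurons, for example, stood at 3.05% and 3.06% in libraries 1 and 3 and at 2.92% and 2.88% in libraries 2 and 4. Median UMIs of kept barcodes were 6398 and 6593 in libraries 1 and 3 and 7874 and 8506 in libraries 2 and 4. Depth of whole libraries thus moved with this order. Within myotome it did not, as library 3 had 2.81% at a median of 7866 UMIs and library 2 had 2.61% at 7402. Libraries 7 and 8 were deepest, at 14621 and 15593, with shares of 3.05% and 3.01%, but held another mix of classes. The part of depth in the order was not tested. The mt- share put libraries 1 and 3 above 2 and 4 in 1 of these 8 classes and the ribosomal share in 4.

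The 4 complexes kept similar proportions in most classes. Genes were placed in complexes by symbol, so Ndufa4 (915 CPM over all kept barcodes) counts in complex I here. On that placement UMIs of complex I genes were 0.973 to 1.05 times those of complex V genes in the 14 classes. The ratios with Ndufa4 in complex IV were not computed. Complex IV genes ran at 0.711 times complex V in sclerotome, 0.716 in neural crest, 0.786 in endothelial cells, 0.819 in neurons and 0.895 in haematopoietic progenitors. In germ cells this ratio was 1.05. Complex IV genes took 1.20% of germ cell UMIs against 0.693% in the other niche classes, where niche means all gated classes other than endothelial and blood classes. Complexes I, III and V took 1.18%, 0.351% and 1.15% in germ cells against 0.922%, 0.263% and 0.916%.

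Single subunits were compared as log2 ratios of CPM + 10. A gene was called when it differed by at least 0.5 log2 units, reached 50 CPM in the higher class and lay on the same side in each library that held 20 or more barcodes of the first class and of the second. This is a rule of size and not a test. In germ cells against the other niche classes (225 and 2963 barcodes), 30 of the 72 subunit genes at 50 CPM were called higher and 3 lower, with the direction checked in library 5 alone. Of 3178 genes at that level, 20.1% were called higher and 35.7% lower. The median log2 ratio was 0.31 for the subunit genes, 0.45 for ribosomal protein genes and -0.21 for all genes. The summed share of the subunit genes was 1.39-fold higher (log2 0.47). By complex, 12 of 36 genes of complex I, 4 of 8 of complex III, 7 of 12 of complex IV and 7 of 16 of complex V were called higher. Scaling by the trimmed mean of M values, which raised the median of all genes to 0.04, gave 37 higher and 1 lower among the subunit genes, beside 29.0% and 27.5% of all genes.

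Complex IV held the highest single ratios. Cox6b2, the testis form of the subunit that bridges the complex IV dimer, stood at 128 CPM in germ cells (112 to 145) against 16.8 CPM in the other niche classes, a log2 ratio of 2.37. In germ cells it read 132 CPM in library 5 and 127 in library 6, and 116 CPM (21 UMIs) in the 18 germ cells of libraries 1 to 4, whereas endothelial cells of libraries 5 and 6 read 8.25 and 8.46. The germ cell values did not overlap those of any endothelial library, the highest of which was 39.0 CPM in library 8. Cox7c, a small structural subunit, stood at 1866 CPM in library 5, 1810 in library 6 and 1872 in libraries 1 to 4, against 648 in the other niche classes (log2 1.49). Cox7a2, the general form of subunit 7a, stood at 1258 against 515 CPM (log2 1.27). Cox4i1, the general form of subunit 4, stood at 2806 against 1311 CPM (log2 1.09), with 2829, 2762 and 2933 CPM in library 5, library 6 and libraries 1 to 4. Each of these 4 genes was thus high in every germ cell group measured.

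The other complexes contributed single genes of similar size. Atp5g1, which encodes subunit c of the rotating ring of ATP synthase, stood at 1810 against 727 CPM (log2 1.30), with 1761 CPM in library 5 and 1861 in library 6. Uqcrb, a subunit of complex III at its ubiquinone site, stood at 935 against 412 CPM, and Ndufs6, an accessory subunit of the NADH-oxidising arm of complex I, at 559 against 244 CPM (log2 1.16 each). The 3 genes called lower were Atp5f1, subunit b of the ATP synthase stalk (413 against 704 CPM, log2 -0.76), Ndufa10 (161 against 234, -0.51) and Ndufv2, an iron-sulphur subunit (159 against 230, -0.51). With libraries 1 to 4 alone, 27 subunit genes were past the size and level as higher and 5 as lower, beside 24.8% and 36.0% of 3231 genes. That setting has 18 germ cells and no library with 20, so direction was not checked by library. In that setting Ndufa10 and Ndufv2 were at -0.43 and -0.20, short of the size, and scaling by trimmed mean also took both below it (-0.31 and -0.30). Atp5f1 stood at -0.57 in libraries 1 to 4.

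Germ cells lay mainly in libraries 5 and 6 (105 and 102 barcodes), where the other niche classes were scarce (20 barcodes in library 5), so library and class can be told apart only in part. Within library 5 the share was 3.88% in germ cells and 2.99% in the other niche classes. Within libraries 1 to 4 it was 3.87% (3.78 to 3.96%, 18 barcodes) against 2.79% (2922 barcodes). A comparison with the endothelial cells of the same libraries was added after the data had been seen. There the summed share differed by 0.43 and 0.41 log2 units in libraries 5 and 6 (3.88% against 2.88% and 2.92%). In that comparison 25 of 72 subunit genes were called higher and 3 lower, beside 22.6% and 38.0% of 3212 genes. The median was 0.27 for the subunit genes, 0.36 for ribosomal protein genes and -0.16 for all genes. Both comparisons share the germ cells, and 23 of 72 subunit genes (31.9%) were called higher in both, beside 19% of the 2832 genes at 50 CPM in both. The 5 highest ratios over endothelial cells were those of Cox6b2 (2.82), Cox7c (1.63) and the complex I accessory subunits Ndufa7 (1.26), Ndufa11 (1.20) and Ndufa13 (1.18). Ndufa8 (-1.61), Ndufs8 (-0.52) and Cox7a2l (-0.51) were lower than in endothelial cells.

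**Figure D2:**
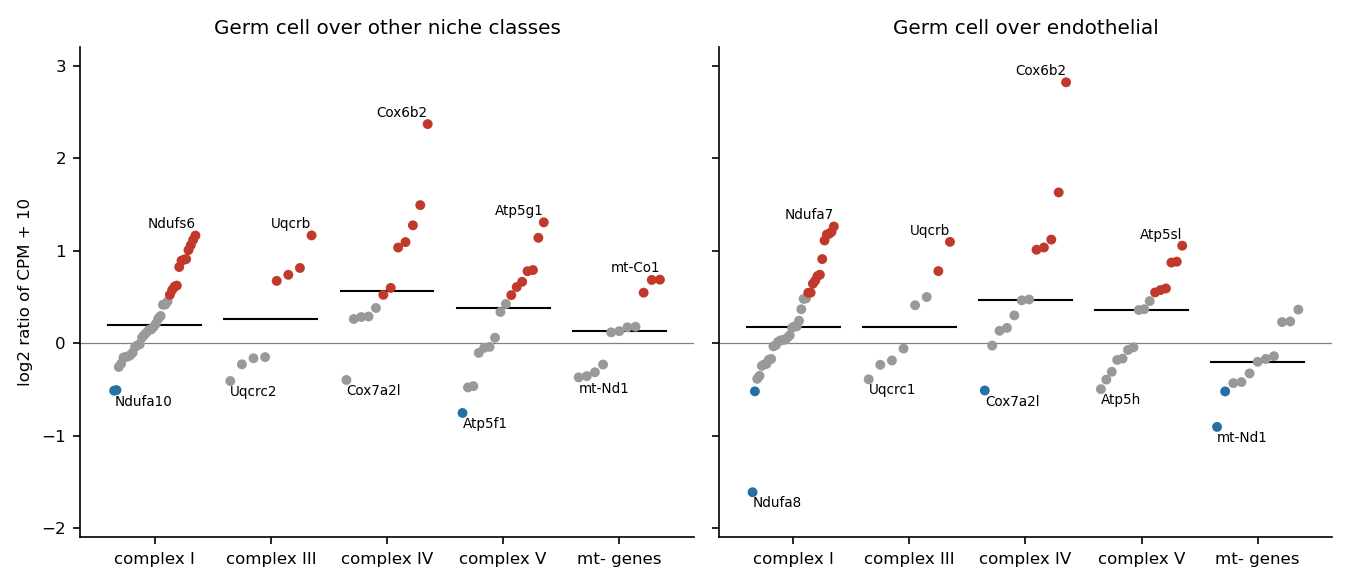
Log2 ratios of CPM + 10 for each nuclear subunit gene at 50 CPM or more, by complex, and for the mt- genes, in germ cells over the other niche classes (left) and over endothelial cells (right). Red and blue points are genes called higher and lower, grey points were not called, and black lines are medians. Cox6b2 is highest in both panels at 2.37 and 2.82, and Ndufa8 is lowest on the right at -1.61.

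Among the mt- genes at 50 CPM, those of complex IV had the highest ratios in germ cells over the other niche classes. mt-Co1 stood at 3778 against 2345 CPM (log2 0.69), mt-Co3 at 6475 against 4031 (0.68) and mt-Co2 at 4118 against 2819 (0.54). These 3 of the 11 mt- genes at 50 CPM were called higher, beside 20.1% of 3178 genes, so the count is not far from that of all genes. None of the mt- genes of complex I, III or V was called, with values from -0.37 for mt-Nd1 to 0.18 for mt-Nd4 among those at 50 CPM. Against endothelial cells mt-Co1 was at 0.36, mt-Co2 and mt-Co3 at 0.23 each, below the size for a call. There mt-Nd1 (-0.91) and mt-Nd4l (-0.52) were called lower and no mt- gene higher, beside 38.0% and 22.6% of 3212 genes.

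Other mitochondrial lists had few higher calls in germ cells, apart from the assembly factors, which were called in both directions. Of the 6 genes of complex II, Cyc1 and Cycs, none was called higher than in the niche and 3 were lower, namely Sdhc (log2 -1.38), Sdhd (-0.63) and Sdhb (-0.55). Of 17 assembly factors at 50 CPM, 6 were higher and 5 lower. Cox17, a copper chaperone for complex IV, stood at 79.6 against 20.8 CPM (1.54) and Sdhaf4 at 156 against 53.9 (1.38), whereas Cox19 stood at 18.5 against 114 (-2.13) and Sdhaf1 at 9.49 against 52.6 (-1.68). Of 14 citric acid cycle genes, Idh2 (-1.52) and Dld (-1.44) were lower and none was higher. The outer membrane porins Vdac1 (71.2 against 230 CPM), Vdac2 (153 against 317) and Vdac3 (83.3 against 137) were lower. In glycolysis 7 of 10 genes were lower and none higher, led by Ldha, the lactate dehydrogenase A subunit, at 322 against 1682 CPM (-2.35), Tpi1 (-1.75), Pgam1 (-1.22) and the glucose transporter Slc2a1 (-1.15). These counts stand beside 35.7% of all genes called lower.

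Haematopoietic progenitors and endothelial cells had summed shares of 2.95% and 2.91% of all UMIs (log2 0.02), while single subunits moved in both directions. With ribosomal protein genes at 35.2% and 27.4% of UMIs, the shares of UMIs that are neither mt- nor ribosomal were 4.77% and 4.19% (log2 0.19). Of 71 subunit genes at 50 CPM, 6 were called higher and 7 lower, beside 12.0% and 22.4% of 3176 genes, and the median was 0.01 against -0.09 for all genes. Cox4i2, the alternative form of subunit 4 known for its response to oxygen, led by far with 106 CPM (91.8 to 121) against 3.56 CPM (2.73 to 4.58). The other 5 genes called higher were Ndufv3 (log2 0.76), Uqcr11 (0.75), Cox7c (0.71), Uqcr10 (0.66) and Cox8a (0.57), most of them small subunits of complexes III and IV. Those called lower included Ndufa9 (-1.01), the complex III core protein Uqcrc1 (-0.90), Atp5o (-0.79) and the core protein Uqcrc2 (-0.68). In glycolysis 4 of 11 genes were lower, led by Slc2a1 (-1.92) and Pkm (476 against 1191 CPM), and Hk1 was higher (1.20).

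These calls depended on which endothelial cells were taken, and their direction could be checked in library 8 alone. Progenitors lay mainly in libraries 7 and 8 (37 and 64 barcodes), and endothelial cells in libraries 5 and 6 (972 and 920), with 19 and 25 in libraries 7 and 8. Within libraries 7 and 8 alone the summed share was lower in progenitors by 0.05 log2 units, and 2 subunit genes were called higher and 2 lower, beside 4.99% and 10.9% of 2906 genes. Cox7c stood at 1045 and 971 CPM in endothelial cells of libraries 7 and 8, at 1026 and 978 CPM in the progenitors there, and at 530 to 637 CPM in endothelial cells of libraries 1 to 6. Cox7c thus followed the libraries in endothelial cells, and its log2 ratio within libraries 7 and 8 was -0.01. The 40 progenitors outside libraries 7 and 8 are not part of these values. Whether Cox7c also differed by class in the other libraries is therefore not shown here. Cox4i2 read 73.3 and 110 CPM in progenitors of libraries 7 and 8 against 28.9 and 36.8 CPM in endothelial cells there (10 and 17 UMIs), and at most 2.75 CPM in endothelial cells of libraries 1 to 6, so it was higher in progenitors in both libraries and higher in endothelial cells of these libraries than elsewhere.

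Over all classes, Cox4i2 had 749 UMIs, of which 211 (28.2%) fell in the progenitor class, which held 2.75% of all UMIs. After thinning every barcode to 3000 UMIs, 23.4% of progenitors (16.7 to 31.3%) had a Cox4i2 UMI, against 1.01% of endothelial cells and 9.80% of gut epithelium, and without thinning 59.6% and 2.59% of progenitors and endothelial cells. The next classes by level were gut epithelium at 43.5 CPM (16 UMIs), smooth muscle at 24.4 CPM (15 UMIs) and mesenchyme at 14.7 CPM, and germ cells had none in 5323 UMIs of Cox4i1. The progenitor value was 66.8 times the limit set for a count of 0 in germ cells (1.58 CPM, 3 counts over the class). This ratio leaves out the counting error of the progenitor value. Progenitors also lay mainly in other libraries than germ cells, so library and class are not told apart in it. Cox4i1, the general form, was 1202 CPM in progenitors and 1366 CPM in endothelial cells.

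**Figure D3:**
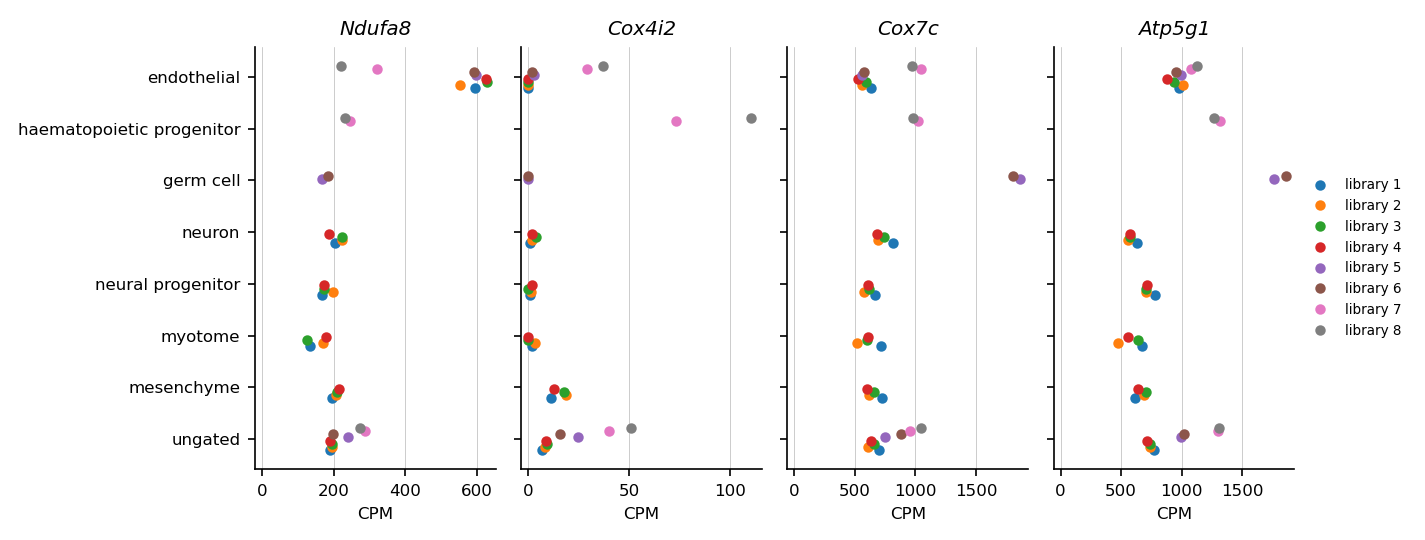
CPM of Ndufa8, Cox4i2, Cox7c and Atp5g1 in 7 marker classes and in ungated barcodes, with 1 dot for each library of at least 20 barcodes, and for the 19 endothelial barcodes of library 7. Ndufa8 is at 552 to 627 CPM in endothelial cells of libraries 1 to 6 and at 320 and 219 CPM in libraries 7 and 8, and endothelial Cox7c is at 530 to 637 CPM in libraries 1 to 6 and at 1045 and 971 CPM in libraries 7 and 8.

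Endothelial cells differed from the niche by a single subunit gene. Ndufa8, an accessory subunit of complex I with twin cysteine motifs, stood at 578 CPM (567 to 589) in endothelial cells against 196 CPM (190 to 201) in the niche, a log2 ratio of 1.52, with 1.41 to 1.66 in the 6 libraries that held both. It was the 1 gene called higher of 70, with none called lower, beside 14.6% and 7.88% of 3238 genes, and the median of the subunit genes was 0.02 against -0.06. Scaling by trimmed mean moved the all-gene shares to 20% and 4.74% and the all-gene median to 0.13, and left 1 subunit gene called. In endothelial cells Ndufa8 read 593, 552, 627, 624, 597 and 590 CPM in libraries 1 to 6, but 320 and 219 CPM in libraries 7 and 8. The last 2 values overlap those of the progenitors in the same libraries, 244 and 231 CPM. Over the 14 classes Ndufa8 had the widest range of any subunit gene at 50 CPM, with progenitors second at 258 CPM and myotome lowest at 151 CPM. Of its UMIs 47.1% fell in endothelial cells, which held 23.6% of all UMIs. The gene lies at chr2:36036326-36049406 on the minus strand (GENCODE vM21, GRCm38), and no annotated gene overlaps it.

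The summed share of endothelial cells and niche was 2.91% and 2.87% (log2 0.02). Leaving out library 4 put it just below 0. In libraries 1 to 4 endothelial cells were higher by 0.03 to 0.07 log2 units, and in libraries 5 and 6, where the niche was mostly germ cells, lower by 0.37 and 0.34, so that the pooled ratio mixes opposite directions. Without germ cells the ratio was 0.06 and 1 subunit gene was called. The mt- genes stood apart here, with a median of 0.29 and 11 of 11 above 0, and mt-Nd1 was called higher at 4171 against 2828 CPM (0.56). The mt- share itself was 3.11% in endothelial cells and 2.43% in the niche.

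The nuclear subunit genes took a larger share of UMIs in neurons than in neural progenitors in each of the 4 libraries that held both. The shares were 3.05, 2.92, 3.06 and 2.88% against 2.81, 2.72, 2.83 and 2.72%, with a log2 ratio of 0.10 over all libraries. Ribosomal protein genes took 22.1% of UMIs in neurons and 26.6% in neural progenitors, and as a share of UMIs that are neither mt- nor ribosomal the ratio was 0.02 (3.93% against 3.87%). Of 72 subunit genes 3 were called higher, Ndufa4l2 (137 against 0 CPM, with UMIs in 47 of 569 neurons), Ndufs1 (66.5 against 42.6) and Ndufv3 (161 against 110), and Ndufa12 was called lower (315 against 458). Over all genes at that level 21.5% were called higher and 20.9% lower, a larger share in both directions than among the subunits. Ndufs1, Ndufv3 and Ndufa12 lay at log2 0.54, 0.51 and -0.52, just past the size, and no subunit gene was called when classes were taken by cluster. Complex IV moved most as a sum (log2 0.17), beside 0.09 for complex I, 0.06 for complex III and 0.07 for complex V. The mt- genes also had higher values, with 10 of 11 above 0 and a median of 0.25, none of them called. In glycolysis 7 of 10 genes were lower in neurons, with Slc2a1 at 93.6 against 347 CPM (-1.78) and Ldha at 1166 against 2733 (-1.22), and the ATPase inhibitor Atpif1 was higher (0.59). Tfam, which packages and transcribes the mitochondrial genome, stood at 42.6 against 96.3 CPM (-1.01) and Nrf1 at 33.1 against 57.3 (-0.64).

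Ndufa4l2, a relative of Ndufa4 known as a target of hypoxia-inducible factor, was held by few barcodes. A UMI of it was found in 180 of the 8915 barcodes, with 1015 UMIs in all, 547 UMIs in 47 neurons, 93 in 29 neural crest and glial precursors, 51 in 22 smooth muscle barcodes and 300 in 61 ungated barcodes. Neurons read 126, 141, 158 and 113 CPM in libraries 1 to 4, and neural progenitors had no UMI. The mean level of the neuron class was 152 times 0.900 CPM, the limit that 3 counts over the class set for a count of 0. That mean rests on the 47 of 569 neurons with a UMI (8.26%) and is not a level of neurons at large. After thinning, 7.42% of neurons and 16% of smooth muscle barcodes had a UMI, against 0.202% of endothelial cells.

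Myotome and dermomyotome, the muscle-forming and precursor compartments of the somite, had no subunit gene called between them. None of 70 at 50 CPM was called in either direction, beside 13.9% of 3056 genes higher and 15.2% lower, and the ratios ran from -0.44 for Ndufa8 to 0.35 for Ndufa1. With no level minimum 2 subunit genes were called, 1 in each direction, one of them Cox6a2 with 12 UMIs against 0. The summed share was 2.72% in myotome and 2.79% in dermomyotome (log2 -0.04), and lay lower in myotome in each of libraries 1 to 4 by 0.02 to 0.08 log2 units. In glycolysis 2 of 10 genes were called higher and none lower. Aldoa, the muscle aldolase, stood at 1612 against 812 CPM (0.98) and Gpi1 at 284 against 195 (0.52). In the citric acid cycle 2 of 14 genes were called higher, Sucla2 (0.78) and Idh2 (0.54), and none lower. The median of the citric acid cycle genes was -0.08, with 6 of 14 above 0. Both counts stand beside the 13.9% of all genes called higher. Tfam was lower (-0.74).

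Most of the UMIs of the rarest alternative subunits fell in 1 class each. Cox6a2, the heart and muscle form of subunit 6a, had 15 UMIs in all kept barcodes, of which 12 fell in myotome (7.77 CPM, 4.02 to 13.6), spread as 5, 3, 2 and 2 over libraries 1 to 4. Cox8b, the muscle form of subunit 8, had 5 UMIs, all in myotome, which held 2.13% of all UMIs. Cox7a1, the muscle form of subunit 7a, was in myotome at 1.94 CPM (3 UMIs), which is the level of 3 counts there, and had 33 of its 121 UMIs in germ cells (17.4 CPM, 12.0 to 24.4). Cox7b2 had 7 of 9 UMIs in germ cells and Cox8c 5 of 6, both of them known as testis forms. Cox6b2 had 243 of 1501 UMIs in germ cells (16.2%), a class with 2.61% of all UMIs, and after thinning 30.8% of germ cells (24.8 to 37.3%) had a UMI of it against 2.43% of endothelial cells and 8.98% of mesenchyme. Cox4i2, by contrast, had 0 UMIs in germ cells. The general forms were detected in every class, with Cox6a1 from 299 to 479 CPM, Cox6b1 from 466 to 639, Cox7b from 339 to 557 and Cox8a from 664 to 1226. Of the 3 genes for subunit c, Atp5g1 ranged from 580 CPM in neurons to 1810 in germ cells, with 1319 in haematopoietic progenitors, Atp5g2 from 826 to 1241 and Atp5g3 from 337 to 462.

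**Figure D4:**
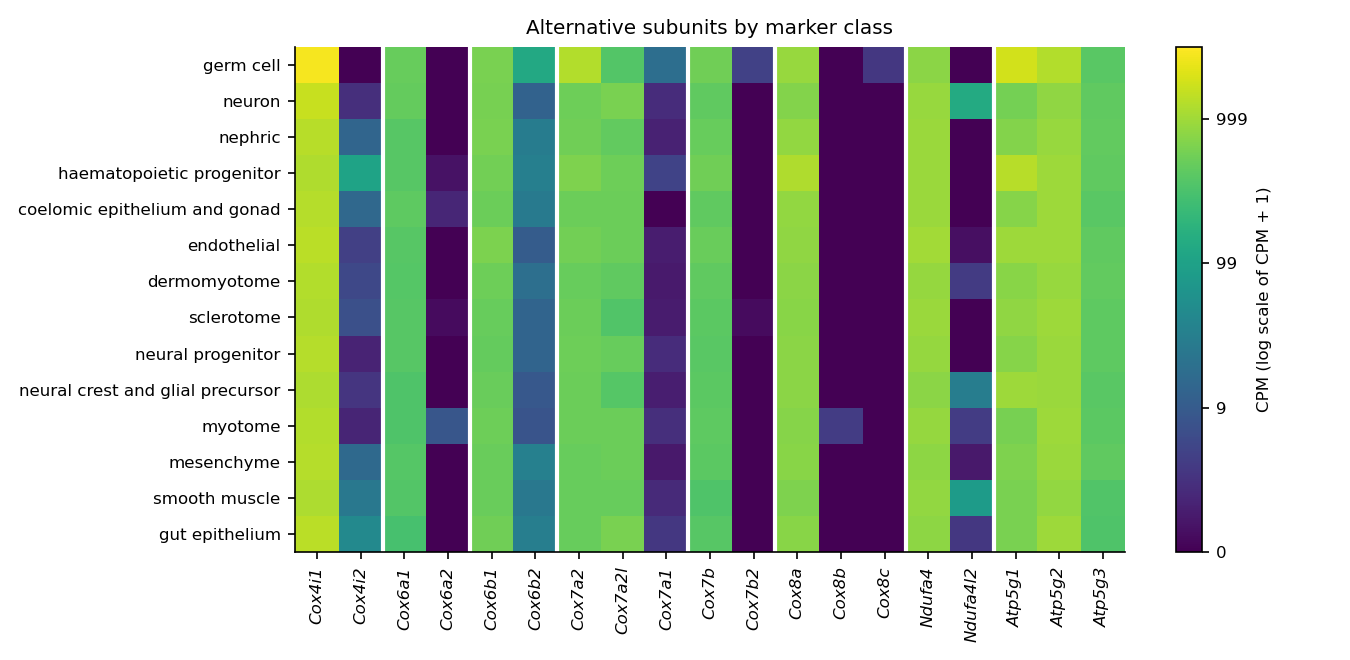
CPM of 19 alternative subunit genes in 14 marker classes on a logarithmic colour scale (CPM + 1). Cox6a2 and Cox8b are above the dark background in myotome, at 7.77 and 3.24 CPM, Cox6b2, Cox7a1, Cox7b2 and Cox8c are highest in germ cells, Cox4i2 in haematopoietic progenitors and Ndufa4l2 in neurons.

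Gene by gene, the subunits varied less over the classes than the genes at 50 CPM or more did as a whole. The difference between the highest and lowest of the 14 classes had a median of 0.86 log2 units over the 70 subunit genes at 50 CPM, against 1.26 over 2760 genes and 0.88 over 83 ribosomal protein genes. The sets were not matched for level, and the part of level and counting noise in these medians was not tested. The widest were Ndufa8 (1.87), Ndufb2 (1.79), Cox7c (1.72), Atp5g1 (1.62) and Uqcr10 (1.45), and the narrowest Atp5d (0.30), Ndufb10 (0.35), Ndufa4 (0.39), Ndufc2 (0.39) and Ndufb5 (0.39). Germ cells were the highest class for 32 of the 70 genes (45.7%, against 15.9% of all genes at that level) and the lowest for 5 (7.14% against 33.6%). Neurons were highest for 9 (12.9% against 16.3%), nephric cells for 9 (12.9% against 3.70%) and haematopoietic progenitors for 8 (11.4% against 10.7%). The lowest class was haematopoietic progenitor for 13 genes (18.6% against 18.9%), gut epithelium for 13 (18.6% against 7.90%) and smooth muscle for 12 (17.1% against 5.29%), so the shares of progenitors were near those of all genes.

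**Figure D5:**
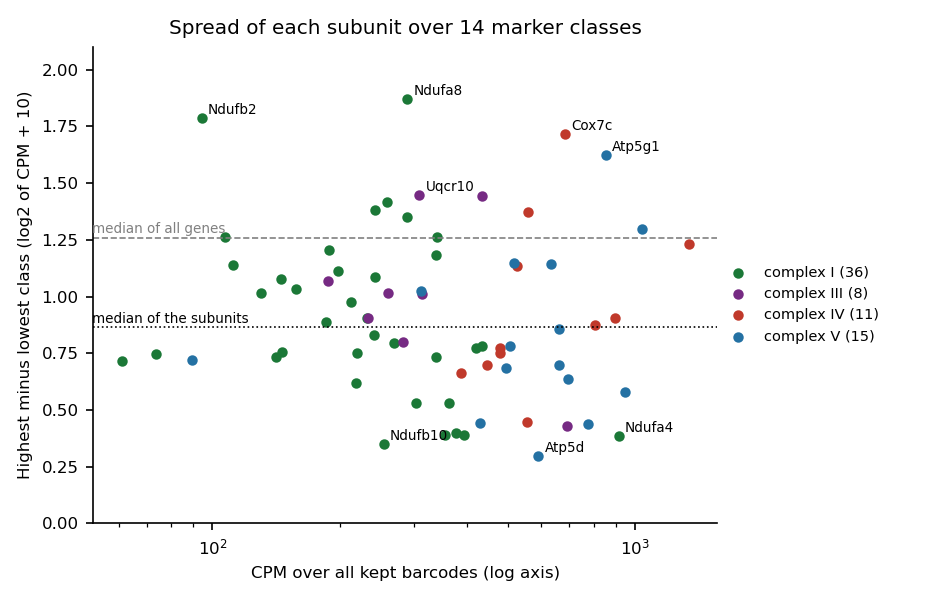
Difference between the highest and the lowest of 14 marker classes (log2 of CPM + 10) for each of the 70 subunit genes at 50 CPM or more, against its CPM over all kept barcodes (log axis), coloured by complex. The dotted and dashed lines are the medians of the subunits (0.86) and of all genes at that level (1.26), and Ndufa8, Ndufb2, Cox7c and Atp5g1 lie farthest above them.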

How the data were processed

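The authors deposited raw UMI counts per gene and barcode in 1 pooled matrix, made with Cell Ranger (version not given in the sources used here) on mm10, per the submitters' processing notes. The members, lists and comparisons were chosen with earlier results of these data known. Barcodes needed 1000 UMIs, 500 genes and at most 10% mt- UMIs (9383 of 9492); the top 5% per library by simulated-doublet neighbours (468) were removed. The comparison of germ with endothelial cells and the settings restricted to some libraries or without germ cells were added after seeing the data. A barcode joined the marker list with the largest share of genes detected, given 3 markers and a lead of 0.15. Counts were summed per class (CPM, pseudocount 10). Intervals are exact Poisson or binomial (95%). Named were the 5 highest and 5 lowest called subunits per comparison, fixed isoforms, extremes of range, mt- genes and up to 4 genes of other lists; some items that this rule names are not reported here. On simulated counts the call rule recovered 200 of 200 changed genes in each comparison and called 0 to 2 unchanged genes, or 13 of 2569 for myotome over dermomyotome. Python 3.11.15, numpy 2.4.6, scipy 1.17.1, scikit-learn 1.9.0 and leidenalg 0.10.2 were used.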

Additional observations from a re-analysis of the deposited data

How the results depend on the processing

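No paired analysis was possible because the samples share 1 matrix with no map from barcodes to samples. The limits are those of 1 pooled sample: library and sort cannot be told apart, and 3444 barcodes stayed ungated. Of 291 class shares recomputed under other settings, 236 stayed within their counting interval and 55 moved. Leaving out a library that holds no barcodes of a class cannot move its value. The settings with another denominator or without some genes measure another quantity than the interval does. The tally is therefore not a measure of stability. Of 734 values of named subunits, 653 kept their call, 80 were no longer called and 1 turned. The last was Cox7c in haematopoietic progenitors over endothelial cells (-0.009184 with libraries 7 and 8 only). These subunits were picked as the most extreme calls of the main setting. Some settings also leave out a library with few or no barcodes of the classes compared. The tally of subunits is likewise not a measure of stability. The log2 ratio of the summed share changed sign where it was near 0. For endothelial cells over niche it was -0.09973 with equal weight per library, -0.0006184 with a lead of 0.25, -0.01355 with markers after thinning and -0.001712 (without library 4) to 0.04456 when 1 library was left out. It was also 0.03824 with classes by cluster, 0.01434 with a gate of 4 markers, 0.03313 with a lead of 0.05, 0.04983 in libraries 1 to 4, 0.05901 without germ cells and 0.04513 as a share of UMIs that are neither mt- nor ribosomal. For haematopoietic progenitors over endothelial cells it was -0.0338 when libraries count equally, -0.05406 in libraries 7 and 8, -0.01505 without them, 0.03598 with a lead of 0.05, 0.03927 after thinning of markers and 0.1888 of non-mt, non-ribosomal UMIs. For germ cells over the other niche classes it was 0.3756 with equal weight per library, 0.7073 of non-mt, non-ribosomal UMIs and 0.4602 to 0.4839 with 1 library left out, and for germ cells over endothelial cells 0.6077 of non-mt, non-ribosomal UMIs and 0.426 without Atp5s, Atp5sl and Cox7a2l. For myotome over dermomyotome it was -0.01811 by cluster, -0.06588 with a lead of 0.25 and -0.0827 of non-mt, non-ribosomal UMIs, and for neurons over neural progenitors 0.08799 by cluster, 0.08817 with a lead of 0.05 and 0.02176 of non-mt, non-ribosomal UMIs. Subunits called for endothelial cells over niche numbered 5 with equal weight per library, 2 with a lead of 0.25, 3 after thinning of markers, 3 with no level minimum and 1 to 2 with 1 library left out. At a size of 1 log2 unit 12 were called for germ cells over niche, 13 over endothelial cells, 2 for haematopoietic progenitors and 1 for neurons. Haematopoietic progenitors had 5 when libraries count equally and 4 in libraries 7 and 8. Myotome had 1 with a lead of 0.25 and 2 with no level minimum. Neurons had 0 by cluster, 2 with equal weight, 1 with a lead of 0.05 and 1 with no doublet removal. The share of all genes called under each setting is not given beside these counts. They are therefore not a result about the subunit genes as against other genes. The cause of each change was not tested.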
